A study of Mus musculus with 72 samples.

Results

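Blood of mice killed 1 day after 1 Gy of neutrons was compared with blood of unirradiated mice of the same day, on 11 of the 72 arrays of the series. The members were chosen by sample title, 6 mice titled as 1 Gy neutrons at day 1 and 5 titled as controls at day 1, and each array carried the RNA of 1 mouse. All were male C57BL/6 mice irradiated or sham-treated at 8 to 10 weeks of age. The controls sat in the same holders on the same wheel with the beam off, and a sixth control was lost because its blood clotted. The neutron field came from an accelerator beam on a beryllium target and carried a component of γ rays, so the irradiated mice received both. Blood was drawn by cardiac puncture into an RNA-stabilizing solution, and globin RNA was reduced before labelling with a single dye. The sample is whole blood, in which red cell precursors, platelets and every class of white cell contribute RNA, with no cell type sorted. The question was which transcripts of circulating blood differ 1 day after this dose of neutrons.

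Ionizing radiation breaks DNA and stabilizes the transcription factor p53, which raises genes of cell cycle arrest, such as Cdkn1a, and of apoptosis, such as Bax and Bbc3. Among circulating cells, B lymphocytes and naive T lymphocytes are known to die readily after irradiation, while granulocytes, natural killer (NK) cells and platelets are more resistant. Nucleic acid sensed in the cytoplasm can induce type I interferon, which acts through a receptor and transcription factors to raise a broad set of antiviral genes. In bulk blood fewer cells of a type and less RNA per cell cannot be told apart. The study states that neither cell death nor white cell composition changed significantly after irradiation. It also states that total blood counts stayed in the normal range.

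The arrays were scanned on 2 dates. All 5 control arrays and neutron replicates 1 to 4 were scanned on the first, neutron replicates 5 and 6 on the second, and no slide held both groups. The share of spots well above background was 54.8 to 63.4% among the controls (median 55.7%) and 60.8 to 63.0% among the neutron mice (median 62.1%), which did not pass a 2-sided exact permutation test (p = 0.0606). The median intensity of probe spots was 49.7 to 73.6 among the controls and 66.8 to 157 among the neutron mice, higher by the same kind of test (exact permutation p = 0.0325). The part of this brightness in the differences below was not tested beyond the alternatives given with them. With so few arrays per group, small differences cannot be resolved. Levels are given as log2 intensity minus the median log2 intensity of the detected probes of the same array, and differences as the neutron mean minus the control mean of these levels, with the standard error (SE) of limma's fit. Levels of different probes are not compared with each other, because probes differ in brightness for equal amounts of RNA. A gene was called when its p was below 0.001 and its Benjamini-Hochberg adjusted p below 0.05 over all genes tested.

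Of 10863 genes tested, 1900 (17.5%) were called between 1 Gy neutrons and controls, 756 (6.96%) higher and 1144 (10.5%) lower in the neutron mice. Both groups were fully apart in 1647 of the called genes, so that every neutron mouse lay on one side of every control. They were apart in 21.5% of all genes tested, and calls made on the same arrays select such genes. The median log2 difference over all genes tested was 0.05. Interferon-stimulated genes, p53 targets of arrest, Schlafen genes and genes of mature neutrophils held more genes called higher than this background, and B cell, MHC class II and naive T cell genes more called lower. The split between directions depended on the reference chosen for each array. With arrays centred on their spike-in control spots the median log2 difference over all genes rose to 0.46, and 1863 genes were called higher and 263 lower. Scaled to the 75th percentile of each array, the median was -0.23, with 522 called higher and 1832 lower. Falls below are therefore relative to the typical transcript of the same blood.

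**Figure D1:**
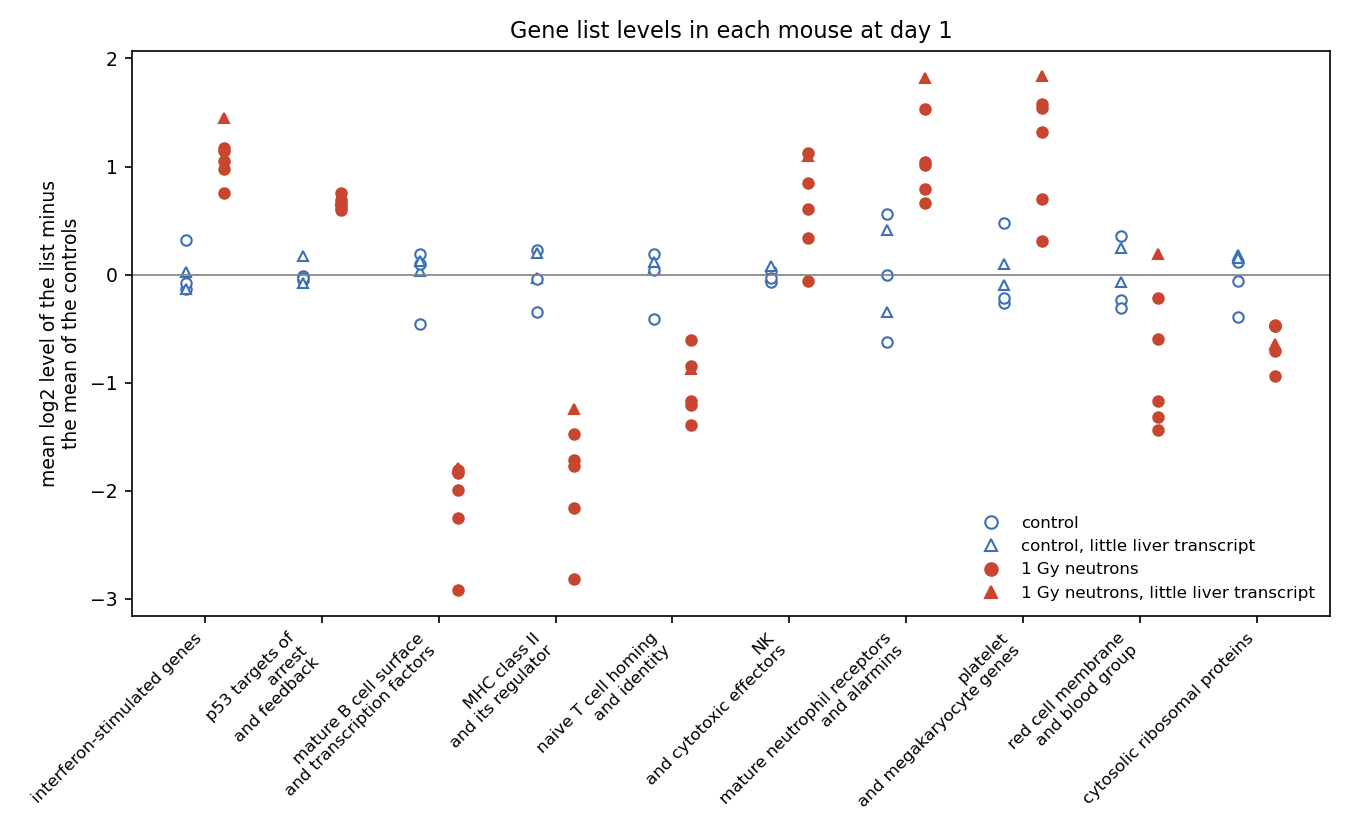
Mean log2 level of 10 gene lists in each mouse (vertical axis, minus the mean of the 5 controls), with open blue symbols for controls, filled red symbols for 1 Gy neutrons, and triangles for the 3 mice with little liver transcript in their blood. The 6 neutron mice lay above every control for the interferon-stimulated, p53 arrest and mature neutrophil lists and below every control for the mature B cell, MHC class II, naive T cell and ribosomal lists, while the groups overlapped for NK, platelet and red cell genes.

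Several targets of p53 that halt the cell cycle rose, most of all Cdkn1a, which encodes the cyclin-dependent kinase inhibitor p21. Of 30 members of this list, 20 passed the filters and were tested, and 10 were called higher (50%, against 6.96% of all genes) and 2 lower. The median log2 difference over the 20 was 1.20, beside 0.05 over all genes. Cdkn1a had log2 levels of -4.20, -2.91, -3.87, -2.87 and -3.74 in the controls, and from -0.32 through a median of 1.06 to 1.32 in the neutron mice. No neutron mouse overlapped a control, and the log2 difference was 4.20 (SE 0.38, 18.3-fold, adjusted p = 4.61e-05 by limma). Psrc1, a microtubule-associated p53 target, read -4.10, -3.79, -4.22, -4.15 and -4.33 in the controls and -2.01 to -0.91 (median -1.52) after neutrons. Its log2 difference was 2.67 (SE 0.22, adjusted p = 4.13e-05), although its probe was well above background on only 3 of the 5 control arrays and it was not called with normexp background correction (0.72). Phlda3, a repressor of Akt signalling, read 0.83, 1.63, 0.83, 1.25 and 0.66 in the controls and 2.82 to 3.78 (median 3.37) after neutrons, again without overlap. It rose by 2.32 on the log2 scale (SE 0.24, adjusted p = 7.93e-05). Dcxr, a carbonyl reductase, rose with overlapping groups (log2 difference 2.27, SE 0.52, adjusted p = 0.00509). Plk2, Plk3, Gtse1, Ccng1, Aen and Zmat3 were the others called higher, with log2 differences from 0.88 to 1.98. Mdm2, the ubiquitin ligase that limits p53, did not pass the variation filter and was not tested. Its levels were 3.14, 3.31, 3.12, 2.70 and 3.04 in the controls and 3.41 to 3.68 (median 3.60) in the neutron mice.

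Not every p53 target rose, and 2 of the 20 tested members of the arrest list were called lower (10%, near the 10.5% of all genes). They were Sesn1, a stress-induced sestrin, and Trp53 itself. Sesn1 read 2.89, 3.03, 2.94, 2.10 and 2.96 in the controls and 1.47 to 2.02 (median 1.85) after neutrons, all below every control, with a log2 difference of -0.996 (SE 0.21, adjusted p = 0.00335). Trp53, the gene of p53, fell by 0.90 (SE 0.20, adjusted p = 0.00459). Both calls were lost without control replicate 1, on the shared scan date and under spike-in centring, and in 14 (Sesn1) and 16 (Trp53) of 30 alternatives in all. Among p53 targets of apoptosis, 4 of 11 tested members were called higher (36.4%, against 6.96% of all genes), with a median of 0.87. The 1 called lower (9.09%) was near the 10.5% of all genes. Bax, which permeabilizes mitochondria, read 3.00, 2.93, 2.51, 2.31 and 2.61 in the controls and 3.28 to 3.72 (median 3.46) after neutrons. The groups did not overlap, and the rise was 0.82 (SE 0.18, adjusted p = 0.00455). Bbc3, which encodes PUMA, rose by 0.96 (SE 0.22, adjusted p = 0.00568), Aen, an exonuclease of apoptosis, by 1.24 (SE 0.20, adjusted p = 0.000916) and Dapk1, a death-associated kinase, by 1.64 (SE 0.19, adjusted p = 0.000168). Trp53i11 fell by 1.65 (SE 0.21, adjusted p = 0.00024), with every neutron mouse below every control. With normexp background correction 3 members of the arrest list were called higher, and without control replicate 1 there were 7. The apoptosis list had 1 with normexp, 2 without control replicate 3 and 7 under spike-in centring, and Bax and Bbc3 lost their calls in 17 and 20 of 30 alternatives.

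Genes of DNA repair that damage is known to induce moved in both directions. Of 7 tested, Mgmt, which removes alkyl groups from guanine, was called higher (14.3%, against 6.96% of all genes). Ddb2, Rrm2b and Fancc were called lower (42.9%, against 10.5%). Mgmt read 0.43, 0.99, 0.74, 1.49 and 0.58 in the controls and 2.26 to 2.93 (median 2.80) after neutrons, a rise of 1.85 (SE 0.22, adjusted p = 0.000193) with no overlap. Ddb2, the damage-binding subunit of nucleotide excision repair, read 0.21, 0.45, 0.36, -0.41 and 0.36 in the controls and -1.02 to -0.81 (median -0.94) after neutrons. It fell by 1.13 (SE 0.19, adjusted p = 0.0011). Rrm2b, the p53-inducible ribonucleotide reductase subunit, fell by 1.01 (SE 0.20, adjusted p = 0.00276), and Fancc of the Fanconi anaemia pathway by 0.99 (SE 0.23, adjusted p = 0.00516), a sign that turned under spike-in centring. Another detected probe of Fancc gave a log2 difference of -0.33. Xpc was not tested and read 0.93 to 1.23 in the controls and 0.96 to 1.39 in the neutron mice. Among 14 tested genes of double-strand break repair and damage signalling, 6 were called lower (42.9%) and 0 higher, with a median of -0.76. They were Parp1, which senses strand breaks (-1.65, SE 0.18, adjusted p = 9.51e-05), Fanci (-1.37), the kinase gene Atm (-1.21), Trp53bp1 (-0.97), Prkdc and Palb2. Under spike-in centring none of the 6 remained called, and the medians of both repair lists were above 0. Without control replicate 3, 1 damage-induced repair gene was called lower.

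**Figure D2:**
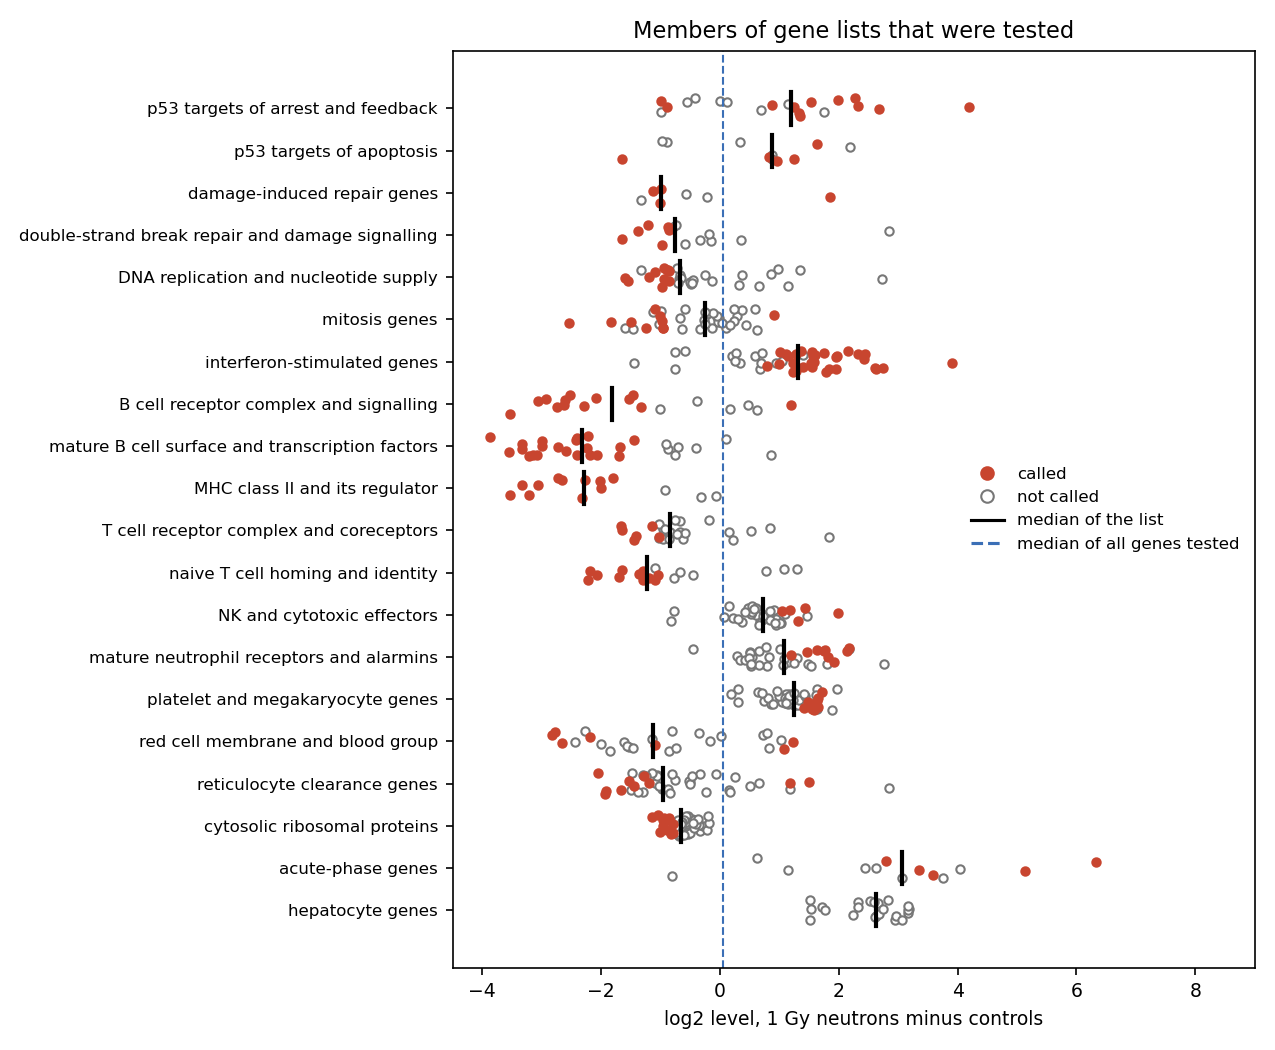
Log2 difference between 1 Gy neutrons and controls (horizontal axis) for every tested member of 20 gene lists, with filled red points for called genes, open points for genes not called, a black bar at the median of the list, and a dashed line at the median of all genes tested, 0.05. Interferon-stimulated genes were spread to the right (31 called higher), and B cell and MHC class II genes to the left (21 and 11 called lower in the mature B cell and class II lists), while no hepatocyte gene was called although all 23 lay to the right.

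Genes stimulated by interferon made up the largest group called higher. Of 61 members, 46 were tested, and 31 were called higher (67.4%, against 6.96% of all genes) and 0 lower, with a median log2 difference of 1.32. Ifit3, an antiviral protein with tetratricopeptide repeats, read 0.34, 0.91, 0.57, 1.51 and 0.13 in the controls and 4.15 to 4.94 (median 4.70) after neutrons. The neutron mice were close to each other and far above every control, a difference of 3.91 (SE 0.26, 15.0-fold, adjusted p = 1.39e-05). Ifit3b rose by 4.51 (SE 0.28, adjusted p = 1.09e-05), but it is a near-identical copy of Ifit3 and the probes may not separate both. Oasl1, of the oligoadenylate synthetase family, read 1.96, 2.14, 2.02, 2.72 and 1.51 in the controls and 4.54 to 5.44 (median 4.76) after neutrons, a rise of 2.74 (SE 0.24, adjusted p = 4.61e-05). Ifit1 read -0.49, -0.08, -0.22, 0.40 and -0.16 in the controls and 2.01 to 2.97 (median 2.52) after neutrons, without overlap, a rise of 2.63 (SE 0.22, adjusted p = 4.34e-05). Oas2, which makes the second messenger of RNase L, rose by 2.62 (SE 0.32, adjusted p = 0.000217). Rtp4, Oasl2, Usp18, Oas1a, Mx1, Parp12 and the RNA sensor gene Ifih1 rose by 1.96 to 2.44, and the chemokine gene Cxcl10 by 1.75. The smallest rise among those called was that of Parp14, 0.79.

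Some genes of the same list did not rise. Isg15, a ubiquitin-like modifier that interferon induces strongly, read 6.03, 6.60, 5.94, 7.00 and 6.72 in the controls and 4.76 to 6.56 (median 5.79) after neutrons. Those ranges overlapped, and the log2 difference was -0.76 (SE 0.36, adjusted p = 0.0988). Irf7, a transcription factor that amplifies interferon production, differed by 0.20 (SE 0.31, adjusted p = 0.603). Rsad2, the gene of viperin, was looked up after its values were seen. It read 6.52, 6.81, 6.91, 7.62 and 7.34 in the controls and 4.56 to 6.80 (median 5.31) after neutrons, and its difference of -1.44 (SE 0.42, adjusted p = 0.0159) was not called. In the Schlafen family, of which several mouse members respond to interferon, 3 of 5 tested genes were called higher (60%). Slfn4 had the largest rise of all genes with groups apart, from -2.18, -0.82, -2.05, -0.45 and -1.90 in the controls to 2.46 to 4.53 (median 3.01) after neutrons. The difference was 4.62 (SE 0.42, 24.6-fold, adjusted p = 4.61e-05). Slfn3 rose by 4.11 (SE 0.36, adjusted p = 4.61e-05), with a sequence close to that of Slfn4, and Slfn1 by 1.40 (SE 0.27, adjusted p = 0.00209). Slfn2 differed by 0.36 (SE 0.24, adjusted p = 0.223). The number of interferon-stimulated genes called higher was 26 on the arrays of the shared scan date alone, 23 in the 8 mice with much liver transcript, and 15 with normexp.

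The promoters of interferon-stimulated genes are known for a response element that interferon-activated factors bind. Its core was searched as GAAA, any 2 bases and GAAA again, on both strands, in the 250 bases before each RefSeq transcription start (GRCm38.p6), where it stood in 2.98% of all windows and in 3.46% of 27025 genes. Of 45 list members with a promoter sequence, 23 held it (51.1%). Among members called higher it was in 11 of 21, and among members tested and not called in 8 of 11, Isg15 and Rsad2 included. The stretches below show this core in capitals, read 5′ to 3′ on the strand of the gene, for 4 raised members and for Isg15 and Rsad2, which were not called. Where the capitals begin with TTTC, the core lies on the opposite strand.
Ifit3 (chr19:34583397-34583426, plus strand, raised 3.91): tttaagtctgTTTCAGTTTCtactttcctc
Ifit1 (chr19:34640794-34640823, plus strand, raised 2.63): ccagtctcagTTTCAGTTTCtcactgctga
Oas1a (chr5:120907526-120907555, minus strand, raised 2.15): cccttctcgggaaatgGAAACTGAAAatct
Cxcl10 (chr5:92349083-92349112, minus strand, raised 1.75): tcacgctttgGAAAGTGAAActtacctcac
Isg15 (chr4:156200865-156200894, minus strand, not called): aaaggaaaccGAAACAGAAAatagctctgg
Rsad2 (chr12:26456553-26456582, minus strand, not called): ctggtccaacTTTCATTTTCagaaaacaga
A match of letters is a description of these windows and does not show that a factor was bound.

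**Figure D3:**
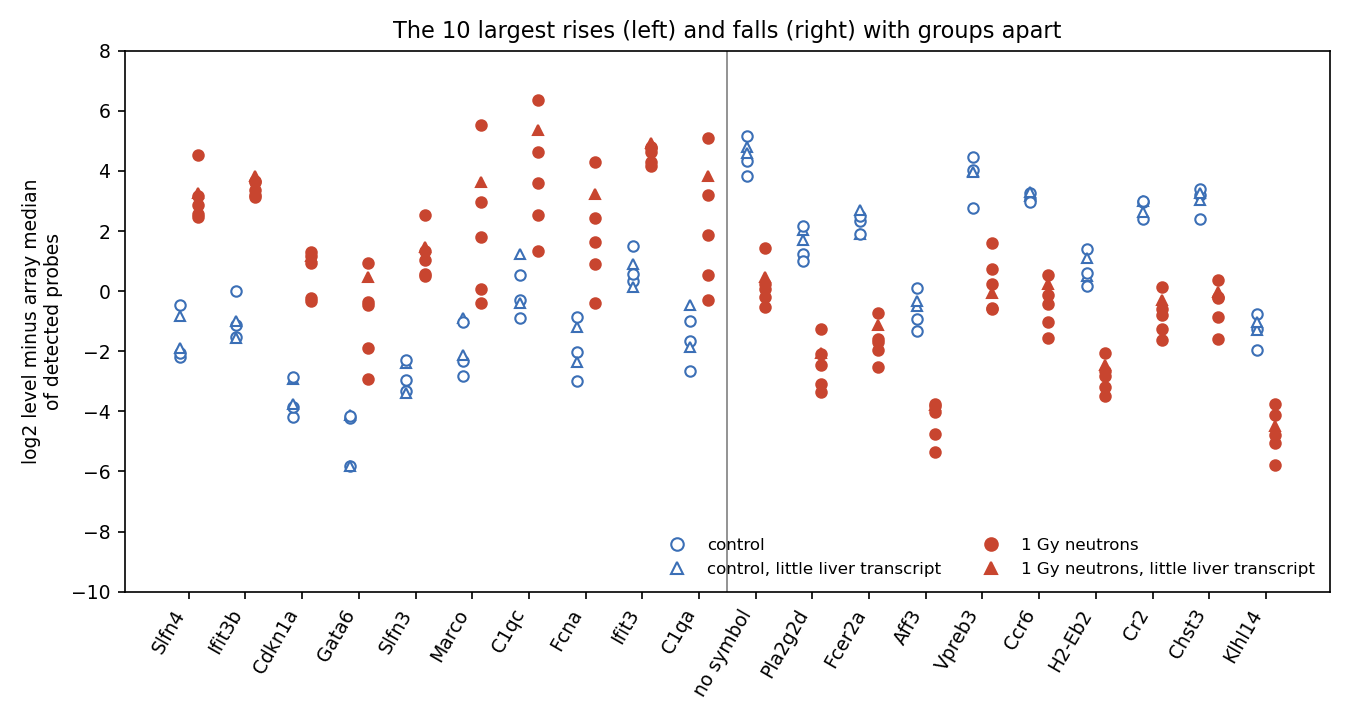
Log2 level minus the array's median over detected probes (vertical axis) in each mouse for the 10 largest rises (left of the line) and the 10 largest falls (right) among called genes with the groups apart, with open blue symbols for controls, filled red symbols for 1 Gy neutrons and triangles for mice with little liver transcript. The neutron mice were tightly grouped for Ifit3, from 4.15 to 4.94, and widely spread for Marco, from -0.39 to 5.54.

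Many genes of B lymphocytes fell. In the list of the B cell receptor complex and its signalling, 12 of 18 tested members were called lower (66.7%, against 10.5% of all genes) and 1 higher, with a median of -1.81. Cd79a, a signalling chain of the receptor, read 5.35, 5.10, 4.98, 4.41 and 5.23 in the controls and 1.40 to 3.36 (median 2.99) after neutrons. All neutron mice were below all controls, and the fall was 2.28 (SE 0.32, adjusted p = 0.000535). Cd79b, the other signalling chain, read 6.85, 6.98, 7.04, 6.15 and 6.96 in the controls and 2.63 to 4.86 (median 4.48) after neutrons, a fall of 2.62 (SE 0.37, adjusted p = 0.000539). Cr2, complement receptor 2 of mature B cells, fell from 2.97, 2.99, 3.01, 2.39 and 2.64 in the controls to -1.62 to 0.15 (median -0.68). The difference was -3.53 (SE 0.30, 11.5-fold lower, adjusted p = 4.13e-05). Fcrla, an Fc receptor-like protein of B cells, fell by 3.06 (SE 0.41, adjusted p = 0.000372), Blk, a Src-family kinase, by 2.93 (SE 0.56, adjusted p = 0.0022) and the adaptor gene Blnk by 2.74 (SE 0.35, adjusted p = 0.000265). The member called higher was Cd81 (1.19), a tetraspanin that many cell types carry.

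Surface proteins and transcription factors of mature B cells fell alike, 21 of 28 tested being called lower (75%) and 0 higher, with a median of -2.32. Ms4a1, the gene of CD20, read 5.46, 5.20, 5.17, 4.39 and 5.15 in the controls and 0.94 to 3.52 (median 2.95) after neutrons. That was a fall of 2.42 (SE 0.40, adjusted p = 0.00115) with no overlap. Fcer2a, the low-affinity IgE receptor CD23, read 2.32, 1.91, 2.50, 1.91 and 2.71 in the controls and -2.53 to -0.71 (median -1.63) after neutrons, 14.6-fold lower (log2 difference -3.87, SE 0.31, adjusted p = 3.6e-05). Ebf1, a transcription factor that sets B cell identity, read 1.60, 1.34, 1.44, 0.84 and 1.67 in the controls and -3.24 to -1.39 (median -1.55) after neutrons, a fall of 3.33 (SE 0.35, adjusted p = 8.4e-05). The chemokine receptor gene Ccr6 fell by 3.55 (SE 0.33, adjusted p = 5.53e-05). Over the alternatives in processing and arrays that were run, 9 to 14 receptor genes and 19 to 22 mature B cell genes were called lower.

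Several further genes were among the 10 largest falls. Pla2g2d, a secreted phospholipase, read 1.24, 2.04, 2.18, 1.02 and 1.69 in the controls and -3.37 to -1.27 (median -2.28) after neutrons, a fall of 4.03 (SE 0.37, adjusted p = 4.61e-05). Vpreb3, which binds immunoglobulin chains during their assembly, fell by 3.62 (SE 0.41, adjusted p = 0.00013), and the sulfotransferase gene Chst3 by 3.48 (SE 0.33, adjusted p = 5.59e-05). Aff3, a nuclear protein of lymphoid cells, fell by 3.65 (SE 0.34, adjusted p = 5.53e-05) and Klhl14 by 3.41 (SE 0.34, adjusted p = 7.67e-05), both with a probe well above background on 5 of the 6 neutron arrays. The largest fall with groups apart, -4.30 (SE 0.34), was that of a transcript named here by its identifier alone, ENSMUST00000192250.

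Genes of MHC class II, which present peptides to helper T cells, fell together with their master regulator Ciita. Of 14 tested, 11 were called lower (78.6%) and 0 higher, with a median of -2.29. Ciita read 1.09, 0.43, 0.25, 0.40 and 0.75 in the controls and -3.61 to -2.25 (median -2.68) after neutrons. The groups lay far apart, by 3.33 (SE 0.25, 10.1-fold lower, adjusted p = 3.6e-05). Other detected probes of Ciita gave log2 differences of -3.06 and -0.67. H2-Ab1, a beta chain, read 8.25, 7.78, 7.73, 7.44 and 8.09 in the controls and 4.27 to 6.44 (median 5.68) after neutrons, a fall of 2.27 (SE 0.34, adjusted p = 0.000672). Cd74, the invariant chain, fell by 2.00 (SE 0.39, adjusted p = 0.00249). H2-Eb2 fell by 3.54 (SE 0.30, adjusted p = 4.13e-05), H2-Ob, an inhibitory chain of B cells, by 3.21 (SE 0.30, adjusted p = 5.53e-05) and H2-DMb2, a chain of the peptide exchange factor, by 3.06 (SE 0.40, adjusted p = 0.000342). In MHC class I presentation 0 of 6 tested genes were called by limma and 0 by the methods' t-test, 4 had an unadjusted p below 0.05 by limma, and their median was 0.49.

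Class II promoters are known for a Y box, which the factor NF-Y binds. The letters CCAAT were searched on both strands in the same windows, and stood in 37.5% of all genes, in 11 of 13 members with a promoter sequence, and in 8 of the 8 members called lower that have one. The stretches show this box in capitals in 3 strongly lowered members, where ATTGG is the box on the opposite strand.
H2-Eb2 (chr17:34325563-34325592, plus strand, log2 difference -3.54): tcttggctgctgATTGGttcttcagcactg
H2-Ob (chr17:34238836-34238865, plus strand, log2 difference -3.21): tcttcgctcttgATTGGttaacagtgtgaa
H2-DMb2 (chr17:34145147-34145176, plus strand, log2 difference -3.06): agtcacttagtgATTGGactgacttaacta
So short a motif is common in promoters, and its presence is a description.

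Genes of naive T cells were often called lower, and genes of the T cell receptor less often. Genes of naive T cell homing and identity had 13 of 20 tested members called lower (65.0%) and 0 higher, with a median of -1.24. Ccr7, the chemokine receptor that guides naive lymphocytes to lymph nodes, read 5.77, 5.75, 5.37, 4.68 and 5.69 in the controls and 2.96 to 4.17 (median 3.24) after neutrons. It fell by 2.07 (SE 0.28, adjusted p = 0.000393) without overlap, and naive B cells carry it too. Tcf7, a transcription factor of naive and memory T cells, read 3.58, 3.26, 3.07, 2.58 and 3.43 in the controls and 1.16 to 2.74 (median 1.82) after neutrons. These ranges overlapped by 1 control, and the fall was 1.30 (SE 0.28, adjusted p = 0.00358). Dapl1 fell by 2.23 (SE 0.29, adjusted p = 0.000301), the aquaporin gene Aqp3 by 2.18 (SE 0.31, adjusted p = 0.000504) and the quiescence factor gene Foxp1 by 1.69 (SE 0.21, adjusted p = 0.000217). In the list of the T cell receptor and its coreceptors, 6 of 26 tested genes were called lower (23.1%, against 10.5% of all genes). Of the 26, 21 lay below 0, with a median of -0.85. Cd8a, a chain of the coreceptor of cytotoxic T cells, read 1.34, 1.09, 1.06, 0.15 and 1.20 in the controls and -1.50 to -0.26 (median -0.57) after neutrons, a fall of 1.66 (SE 0.27, adjusted p = 0.00103). Cd8b1 fell by 1.66 (SE 0.32, adjusted p = 0.00217), Slamf6 by 1.45 (SE 0.24, adjusted p = 0.00104) and Themis by 1.42 (SE 0.24, adjusted p = 0.00132). The receptor chain genes were not called, with log2 differences of -1.03 (SE 0.25, adjusted p = 0.00733) for Cd3e and -0.61 (SE 0.27, adjusted p = 0.0774) for Cd3g. The counts of genes called lower moved to 7 and 3 on the arrays of the shared scan date and to 5 and 1 under spike-in centring, in the order naive list and receptor list. In the same order they were 14 and 11 when arrays were scaled to their 75th percentile, and 14 and 12 with slide as a random block.

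Genes of NK cells and cytotoxic effectors lay higher in the neutron mice, with 34 of 36 tested above 0 and 5 called higher (13.9%). The median was 0.72. Gzma, a granzyme of NK cells, read 6.32, 6.02, 6.03, 6.33 and 6.20 in the controls and 6.08 to 7.88 (median 7.19) after neutrons, a difference of 0.94 (SE 0.28, adjusted p = 0.0184) that was not called. Ncr1, the NK receptor NKp46, differed by 0.94 (SE 0.30, adjusted p = 0.0219). Gzmb, a granzyme that activated cytotoxic cells store, read 1.13, 1.26, 1.46, 1.37 and 1.46 in the controls and 2.54 to 3.72 (median 3.43) after neutrons. The groups were apart, by 1.99 (SE 0.23, adjusted p = 0.000124). Fasl, a ligand that triggers apoptosis, rose by 1.44 (SE 0.26, adjusted p = 0.00184), the chemokine gene Xcl1 by 1.31 (SE 0.30, adjusted p = 0.0051) and the receptor gene Klrc1 by 1.18 (SE 0.24, adjusted p = 0.00302). The count of 5 was 25 under spike-in centring, 2 on the arrays of the shared scan date, and from 2 (without control replicate 2) to 11 (without neutron replicate 3) when 1 array was left out.

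Genes of mature neutrophils rose in part. Of 35 tested, 9 were called higher (25.7%) and 0 lower, with a median of 1.08 and 34 members above 0. Il1r2, a decoy receptor for interleukin 1, read -0.51, -0.06, -1.37, 0.23 and -1.09 in the controls and 1.22 to 2.26 (median 1.44) after neutrons, a rise of 2.13 (SE 0.31, adjusted p = 0.000592) without overlap. Slpi, a secreted inhibitor of leukocyte proteases, rose by 1.91 (SE 0.39, adjusted p = 0.00299) and Fpr2, a formyl peptide receptor, by 1.81 (SE 0.29, adjusted p = 0.00103). The defining markers were not called: S100a8, an alarmin, differed by 0.80 (SE 0.30, adjusted p = 0.0457) and Cxcr2, a chemokine receptor, by 0.52 (SE 0.44, adjusted p = 0.336). Neutrophil granule proteins had 1 gene called higher of 19 tested (5.26%, against 6.96% of all genes). It was Lcn2, an iron-sequestering protein that the liver also makes in inflammation. Lcn2 read 1.51, 2.60, 0.96, 3.90 and 1.41 in the controls and 4.12 to 5.44 (median 5.10) after neutrons, a rise of 2.79 (SE 0.49, adjusted p = 0.00139). Camp, a granule peptide made by neutrophil precursors, was at 4.27 in control replicate 4 and 4.96 in neutron replicate 4, and between -1.66 and -0.96 in all other mice. The number of mature neutrophil genes called higher was 2 without control replicate 5 and in the 8 mice with much liver transcript, 3 with normexp and 18 under spike-in centring.

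Genes typical of tissue macrophages were among the largest rises, and no macrophage list had been set up, so these genes were grouped after their values were seen. Marco, a scavenger receptor, read -2.81, -0.91, -2.32, -1.02 and -2.11 in the controls and 0.08, -0.39, 5.54, 3.64, 1.79 and 2.96 in neutron replicates 1 to 6. The groups did not overlap, but the neutron mice spanned nearly 6 log2 units, and the difference was 4.10 (SE 0.92, adjusted p = 0.00465). C1qa, a chain of complement C1q, read 0.55, -0.30, 5.09, 3.82, 1.86 and 3.19 in the same order, against -2.66 to -0.47 in the controls (difference 3.90, SE 0.85, adjusted p = 0.00406). The order of the mice was the same for C1qc (3.93, SE 0.78, adjusted p = 0.00271) and Fcna, a ficolin (3.91, SE 0.72, adjusted p = 0.00189), with replicate 3 highest and replicate 2 lowest. Gata6, a transcription factor of peritoneal macrophages, read -1.91, -2.91, 0.94, 0.47, -0.45 and -0.35, a rise of 4.13 (SE 0.65, adjusted p = 0.000909) with a probe well above background on 3 of the 5 control arrays. Of 30 alternatives, Marco lost its call in 13, C1qa in 11, C1qc in 5, and Fcna and Gata6 each in 1. Monocyte genes had 1 of 33 tested called higher (3.03%, against 6.96% of all genes) and 2 lower (6.06%, against 10.5%). Their median was 0.43, and Csf1r and Ccr2, which mark monocytes, differed by 0.15 and -0.20 and were not called.

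Platelet and megakaryocyte genes lay above 0 in all 43 tested, with a median of 1.25, and 9 were called higher (20.9%). The defining markers were not called: Pf4, platelet factor 4, read 8.67, 8.78, 8.33, 8.75 and 8.63 in the controls and 8.13 to 9.32 (median 9.08) after neutrons, a difference of 0.31 (SE 0.23, adjusted p = 0.277). Itga2b, an integrin chain of platelets, differed by 1.09 (SE 0.40, adjusted p = 0.0409). Nrgn rose by 1.71 (SE 0.36, adjusted p = 0.00336), the channel gene Trpc6 by 1.65 (SE 0.35, adjusted p = 0.00333), Ptgs1, cyclooxygenase 1, by 1.65 (SE 0.30, adjusted p = 0.00164) and the growth factor gene Pdgfa by 1.64 (SE 0.35, adjusted p = 0.00351). Of these, Ptgs1 had no overlap between groups. The count of 9 was 0 in the 8 mice with much liver transcript, 39 under spike-in centring, and from 5 (without control replicate 3) to 27 (without neutron replicate 3) with 1 array left out.

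Red cell membrane and reticulocyte genes lay mostly below 0. Of 26 tested genes of the red cell membrane and blood groups, 5 were called lower (19.2%, against 10.5% of all genes). The 2 called higher (7.69%) were near the 6.96% of all genes. In this list 19 genes lay below 0, with a median of -1.12. Ank1, erythroid ankyrin, differed by -2.78 (SE 0.65, adjusted p = 0.00557) and Epb41, protein 4.1, by -2.19 (SE 0.47, adjusted p = 0.00374). Slc4a1, the band 3 anion exchanger, had overlapping groups and was not called (-2.44, SE 0.62, adjusted p = 0.008). Among 41 tested genes of reticulocyte clearance, 8 were called lower (19.5%) and 2 higher (4.88%), and 32 lay below 0, with a median of -0.95. The mitochondrial iron importer gene Slc25a37 fell by 2.06 (SE 0.43, adjusted p = 0.0034) and the ubiquitin ligase gene Ube2o by 1.91 (SE 0.41, adjusted p = 0.0037). In heme synthesis 1 of 17 tested genes was called, higher (5.88%, against 6.96% of all genes). On the arrays of the shared scan date 1 gene of each of the membrane and clearance lists was called lower. Leaving out control replicate 2 gave 1 membrane gene and control replicate 5 gave 1 clearance gene, while leaving out neutron replicate 4 gave 9 and 16.

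Genes of dividing cells fell in part. Of 39 tested mitosis genes, 9 were called lower (23.1%, against 10.5% of all genes) and 1 higher (2.56%, against 6.96%). The median of the list was -0.26. Nusap1, which binds spindle microtubules, read 3.54, 3.61, 3.55, 4.20 and 4.21 in the controls and 0.06 to 2.67 (median 1.03) after neutrons, a fall of 2.55 (SE 0.43, adjusted p = 0.00124) without overlap. Cdc25b, a phosphatase that starts mitosis, fell by 1.83 (SE 0.39, adjusted p = 0.00375), the condensin genes Smc2 and Ncapd2 by 0.96 and 0.95, the kinetochore gene Ndc80 by 1.24 (SE 0.19, adjusted p = 0.00077) and Mns1 by 1.10 (SE 0.22, adjusted p = 0.00261). The others called lower were Smc4, another condensin gene, Cenpa, of the centromere, and Mad2l1, of the spindle checkpoint. Cdk1, the main mitotic kinase, was called higher, from -4.01, -4.08, -3.82, -3.55 and -4.03 in the controls to -3.43 to -2.69 (median -2.99) after neutrons, by 0.90 (SE 0.19, adjusted p = 0.00351). The call of Cdk1 was lost in 14 of 30 alternatives, among them the shared scan date and the fit without control replicate 1. Ccnb1, its cyclin, differed by 0.29 (SE 0.18, adjusted p = 0.198). Cyclin gene Ccna2 (-1.59, SE 0.46, adjusted p = 0.0145), the ubiquitin-conjugating enzyme gene Ube2c (-1.46, SE 0.50, adjusted p = 0.0301), Fzr1, an activator of the anaphase-promoting complex (-0.99, SE 0.29, adjusted p = 0.016), and Anln (0.62, SE 0.21, adjusted p = 0.0305) were not called. The number of mitosis genes called lower was 3 under spike-in centring, where the median of the list was above 0, and 4 without control replicate 5.

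Replication genes had 11 of 31 tested called lower (35.5%) and 0 higher, with a median of -0.67. Pold1, the catalytic subunit of DNA polymerase delta, read 1.92, 2.10, 1.91, 1.29 and 1.88 in the controls and -0.12 to 0.44 (median 0.29) after neutrons, with no overlap and a fall of 1.60 (SE 0.20, adjusted p = 0.000217). The licensing factor gene Cdt1 fell by 1.55 (SE 0.20, adjusted p = 0.000281), and the helicase genes Mcm4, Mcm3 and Mcm2 by 1.20, 1.09 and 0.86. In the E2f family, whose members drive these genes or hold them back, 2 of 8 tested were called lower (25%, against 10.5% of all genes). E2f2, which erythroid precursors also express, read 5.81, 5.87, 5.51, 6.35 and 6.44 in the controls and 3.38 to 5.47 (median 4.11) after neutrons, a fall of 1.71 (SE 0.37, adjusted p = 0.00411) without overlap. Tfdp2, the gene of a dimer partner, fell by 1.81 (SE 0.40, adjusted p = 0.00455), while another detected probe of Tfdp2 gave -0.67. No E2f family gene was called lower without control replicate 1 or on the shared scan date, and E2f2 and Tfdp2 lost their calls in 13 and 15 of 30 alternatives. E2f1 differed by 0.51 (SE 0.20, adjusted p = 0.0494) and E2f8 by 0.05 (SE 0.19, adjusted p = 0.845), neither being called. E2f3 and E2f4 did not pass the filters, with levels of -1.22 to -0.96 and -0.74 to -0.37 in the controls and -0.87 to -0.61 and -1.11 to -0.88 after neutrons. Under spike-in centring 0 replication genes were called lower by limma, and without control replicate 3 the count was 6.

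Cytosolic ribosomal protein genes lay below 0 in all 58 tested, with a median of -0.65, and 13 were called lower (22.4%). Rps18 read 5.66, 5.36, 5.29, 4.97 and 5.65 in the controls and 3.98 to 4.55 (median 4.24) after neutrons, a fall of 1.14 (SE 0.19, adjusted p = 0.00112) without overlap. Rps3 fell by 1.05 (SE 0.16, adjusted p = 0.000857) and Rpl13 by 1.00 (SE 0.19, adjusted p = 0.00235). Their other detected probes fell less, with log2 differences of -0.93 and -0.21 for Rps3 and -0.68 and -0.40 for Rpl13. The count was 0 under spike-in centring, where the median was -0.12, and 33 when arrays were scaled to their 75th percentile. It ranged from 2 (without control replicate 5) to 24 (without control replicate 4) with 1 array left out.

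After its higher doses, the study names a list of genes as lowered at its earlier time point and raised at the later time point. Apart from E2f2, given above, 8 genes of that list were tested here at the earlier time point, and 7 were called lower. The later time point was not examined here. The study chose them on these same samples, so they are no independent evidence of a direction. Slc25a51, a mitochondrial carrier, read 3.55, 3.63, 3.14, 4.31 and 4.24 in the controls and 0.68 to 2.87 (median 1.22) after neutrons. Slc25a51 fell by 2.20 (SE 0.41, adjusted p = 0.00191), the histone chaperone gene Anp32e by 1.62 (SE 0.30, adjusted p = 0.00187), Ubac1 by 1.45 (SE 0.32, adjusted p = 0.00427) and Mta3, a subunit of a chromatin-remodelling complex, by 1.35 (SE 0.27, adjusted p = 0.0027). Mtmr3, a lipid phosphatase gene, fell by 1.28 (SE 0.25, adjusted p = 0.00245), Wdr26 by 1.27 (SE 0.27, adjusted p = 0.00364) and the translation factor gene Eif5 by 1.22 (SE 0.27, adjusted p = 0.00436). Other detected probes gave smaller falls for Mta3 (-0.95 and -0.22) and Mtmr3 (-0.79 and -0.75). Bsdc1 had no overlap between groups but missed the threshold (-1.43, SE 0.35, adjusted p = 0.00702). Of 30 alternatives, Eif5 and Ubac1 each lost their call in 15, Wdr26 in 13 and Mta3 in 9. Mtmr3 lost it in 6, Anp32e in 3 and Slc25a51 in 1.

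Liver transcript was present in the blood of most mice and in little amount in 3. The mean log2 level of 53 hepatocyte genes on the array was 3.25, -1.62, 4.19, 5.47 and -0.80 in the controls and 6.90, 5.48, 6.32, -1.52, 6.79 and 5.59 in neutron replicates 1 to 6 (2-sided exact permutation p = 0.169). Alb, the albumin gene, read 7.01, 0.88, 7.89, 8.68 and 2.58 in the controls and 9.65, 8.72, 8.89, 1.09, 9.50 and 8.88 in the neutron mice, so it separated the same 3 mice from the others. Of the 23 hepatocyte genes tested 0 were called by limma and 0 by the methods' t-test, 4 had an unadjusted p below 0.05 by limma, and all lay above 0, with a median of 2.63. Acute-phase genes, which the liver makes in inflammation, had 5 of 13 tested called higher (38.5%) and a median of 3.07. Saa1, serum amyloid A1, read 0.07, 1.09, 0.74, 6.11 and 0.07 in the controls and 8.72, 8.19, 8.03, 5.47, 8.82 and 8.43 in the neutron mice, a rise of 6.33 (SE 1.01, 80.2-fold, adjusted p = 0.000955). Neutron replicate 4, with little liver transcript, was the lowest neutron mouse and above 4 of the 5 controls. Saa3 rose by 5.14 (SE 1.13, adjusted p = 0.00428), Lbp, which binds bacterial lipopolysaccharide, by 3.58 (SE 0.80, adjusted p = 0.00473), and Lrg1 by 3.35 (SE 0.64, adjusted p = 0.00217). The acute-phase count was 3 without control replicate 1. Mt1, a metallothionein that glucocorticoids and metals induce, read 1.13, -0.29, 1.13, 3.71 and -1.04 in the controls and 7.66, 3.49, 7.41, 3.64, 6.16 and 5.63 in the neutron mice, a rise of 4.74 (SE 0.94, adjusted p = 0.00261). Genes of heart and skeletal muscle had 0 of 6 called by limma or the methods' t-test and 1 with an unadjusted p below 0.05, and genes of lung epithelium 0 of 2 on each count. The mean log2 level of the muscle list was -4.97 to -4.66 in the controls and -5.35 to -3.44 in the neutron mice.

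**Figure D4:**
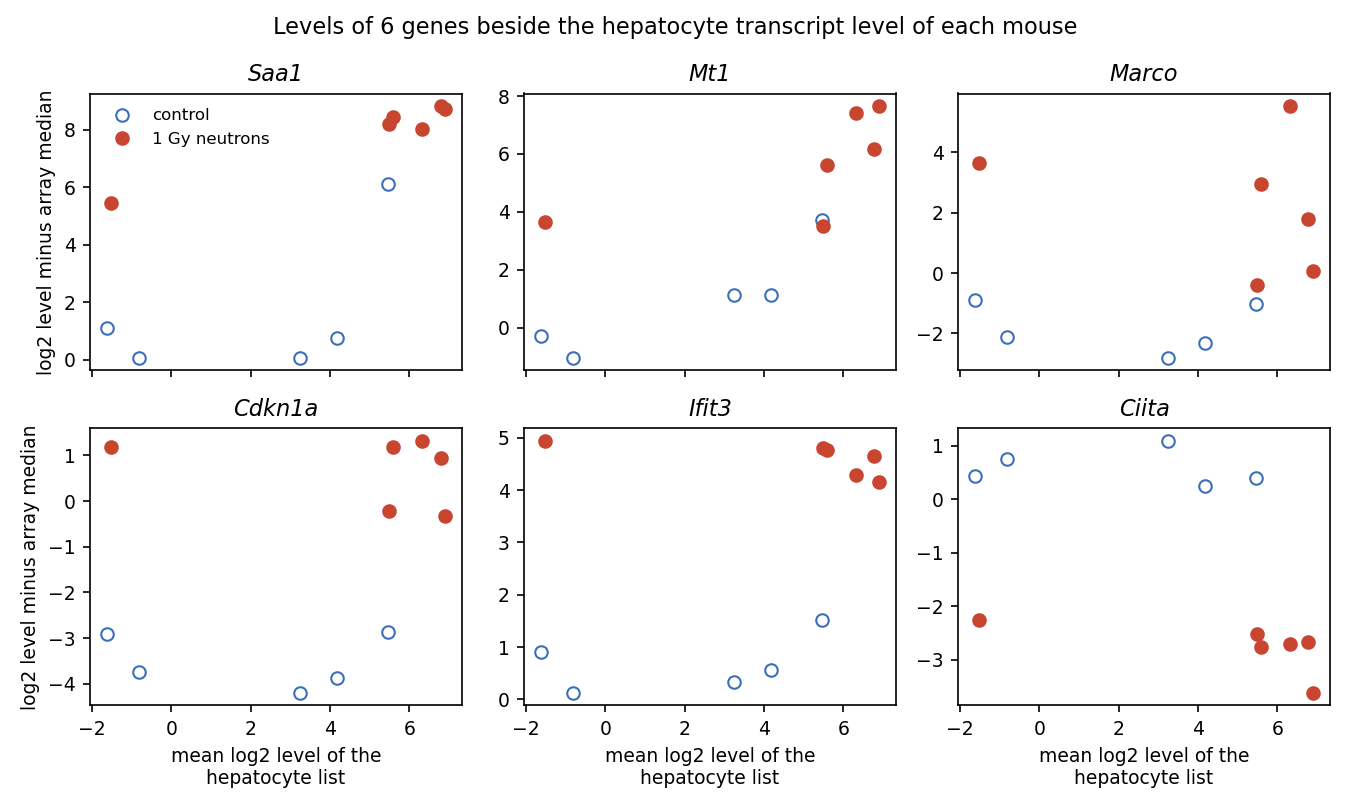
Log2 level minus the array's median (vertical axis) of 6 genes in each mouse against the mean log2 level of the hepatocyte list in the same blood (horizontal axis), with open blue points for 5 controls and filled red points for 6 neutron mice. Cdkn1a and Ifit3 were above every control and Ciita below every control in all 6 neutron mice, replicate 4 included at a hepatocyte level of -1.52, while Saa1 and Mt1 were high in control replicate 4 at 5.47.

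With the hepatocyte level of each mouse as a covariate, 1408 genes were called, 783 of them higher, and 1243 of these were among the 1900. In the 8 mice with a hepatocyte level above 1, 631 genes were called, of which 575 were among the 1900. The counts in these 8 mice were 19 mature B cell genes, 10 MHC class II genes and 6 naive T cell genes called lower, and 10 p53 arrest genes, 23 interferon-stimulated genes and 2 acute-phase genes called higher. The part of liver transcript in the other differences was not tested further.

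The neutron mice were also compared directly with mice of the same day given 0.25 Gy of neutrons (6 mice), 1 Gy of x-rays (6 mice) or 4 Gy of x-rays (5 mice), with no control in these tests. Of 10863 genes, 147 (1.35%) were called between 1 and 0.25 Gy of neutrons, 55 higher and 92 lower at 1 Gy. The split turned under spike-in centring, with 651 higher and 20 lower. Against 1 Gy of x-rays 983 (9.05%) were called, 144 higher and 839 lower after neutrons (46 and 36 under spike-in centring), and against 4 Gy of x-rays 6 (0.0552%), all higher after neutrons. Scan dates differed between these groups. All arrays of 0.25 Gy neutrons were scanned on the first date, and on the shared date alone the count was 9, all of them higher at 1 Gy. Where x-ray arrays shared a date with neutron arrays, it was with neutron replicates 5 and 6 only. Too few 4 Gy x-ray arrays shared that date for a test on it alone. A fit blocked on scan date called 0 genes against 1 Gy and 1 against 4 Gy, which was lower after neutrons and not among the 6. Differences from x-rays therefore cannot be told apart from scan date here. X-rays also came from another machine at a higher dose rate, and the study describes sham treatment only on the neutron wheel. These conditions cannot be told apart from the type of radiation either. Leaving out 1 array moved the count against 0.25 Gy neutrons from 10 (without 0.25 Gy replicate 2 or 4, all of them higher) to 1012 (without 0.25 Gy replicate 5).

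Interferon-stimulated genes were the list with most calls against 0.25 Gy neutrons, 19 of 46, and their median difference over the tested members was 1.07. Over all genes only 9 calls remained on the shared scan date and 7 with normexp, so most of the 19 were lost there. Which members kept their calls is not given here. Ifit3 had log2 levels of 0.70 to 2.10 (median 1.74) after 0.25 Gy neutrons, and x-rays gave 1.72 to 3.05 (median 2.25) at 1 Gy and 3.53 to 5.57 (median 4.45) at 4 Gy, beside 4.15 to 4.94 after 1 Gy neutrons. Ifit3 was higher than after 0.25 Gy neutrons by 2.96 (SE 0.25, adjusted p = 0.000103) and than after 1 Gy x-rays by 2.30 (SE 0.24, adjusted p = 0.000439). The difference of Ifit3 from 4 Gy x-rays was 0.25 (SE 0.34, adjusted p = 0.709). Slfn4 behaved alike, higher than after 0.25 Gy neutrons by 3.49 (SE 0.44, adjusted p = 0.00314) and differing from 4 Gy x-rays by 0.58 (SE 0.48, adjusted p = 0.508). Cdkn1a had levels of -1.81 to 0.26 (median -1.41) after 0.25 Gy neutrons, and x-rays gave -0.87 to 0.32 (median -0.48) at 1 Gy and 0.26 to 0.96 (median 0.68) at 4 Gy. The difference of Cdkn1a from 0.25 Gy neutrons, 1.71 (SE 0.43, adjusted p = 0.0725), was not called, nor was that from 4 Gy x-rays, 0.05 (SE 0.34, adjusted p = 0.953).

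Some B cell genes were called lower than after 0.25 Gy neutrons and some higher than after 4 Gy x-rays. No gene was called lower than after 0.25 Gy neutrons on the shared scan date, with scan date as a block, or without 0.25 Gy replicate 2 or 4, so that none of these falls, that of Fcer2a included, kept its call there. Of the mature B cell list 9 genes were called against 0.25 Gy neutrons (median -1.47), 16 against 1 Gy x-rays (median -1.56) and 1 against 4 Gy x-rays (median 1.29). Fcer2a had levels of -0.66 to 2.07 (median 1.45) after 0.25 Gy neutrons, and x-rays gave 0.48 to 0.99 (median 0.75) at 1 Gy and -5.10 to -3.97 (median -4.13) at 4 Gy. After 1 Gy neutrons Fcer2a was 2.74 lower than after 0.25 Gy neutrons (SE 0.43, adjusted p = 0.0173) and 2.69 higher than after 4 Gy x-rays (SE 0.33, adjusted p = 0.0138). Pla2g2d (3.29, SE 0.37, adjusted p = 0.0102), Cr2 (2.03, SE 0.30, adjusted p = 0.041) and Dapl1 (2.21, SE 0.34, adjusted p = 0.0482) were likewise called higher than after 4 Gy x-rays, together with 2 transcripts without a symbol. None of the 6, Fcer2a included, kept its call with scan date as a block, with normexp or without neutron replicate 6. Ciita differed from 4 Gy x-rays by 0.56 (SE 0.26, adjusted p = 0.277), which was not called.

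In other lists the calls were mostly against 1 Gy x-rays. T cell receptor genes had 0 called against 0.25 Gy neutrons and 18 of 26 against 1 Gy x-rays (median -1.17), and ribosomal protein genes 0 and 28 of 58 (median -0.68), within the limit of the scan dates given above. For red cell membrane and platelet genes limma called none in the direct comparisons, where 2785, 3604 and 2004 of all genes had an unadjusted p below 0.05 in the order 0.25 Gy neutrons, then x-rays at 1 and 4 Gy. The median log2 difference of the red cell membrane list from the controls was -1.12 at 1 Gy and -0.26 at 0.25 Gy of neutrons, while x-rays gave -1.28 at 1 Gy and -1.91 at 4 Gy, all against the same 5 controls. Nusap1 differed between 1 Gy neutrons and 1 Gy x-rays by 0.00 (SE 0.45, adjusted p = 0.999). Lcn2 was higher after 1 Gy neutrons than after 0.25 Gy neutrons by 2.50 (SE 0.34, adjusted p = 0.00515), and Il1r2 by 1.78 (SE 0.32, adjusted p = 0.0223). Both calls stand within the limits against 0.25 Gy neutrons given above. Marco had levels of -1.76 to 3.88 after 0.25 Gy neutrons, and x-rays gave -1.40 to 4.73 at 1 Gy and 1.08 to 5.00 at 4 Gy, and 1 Gy neutrons differed from none of them by a called amount.

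**Figure D5:**
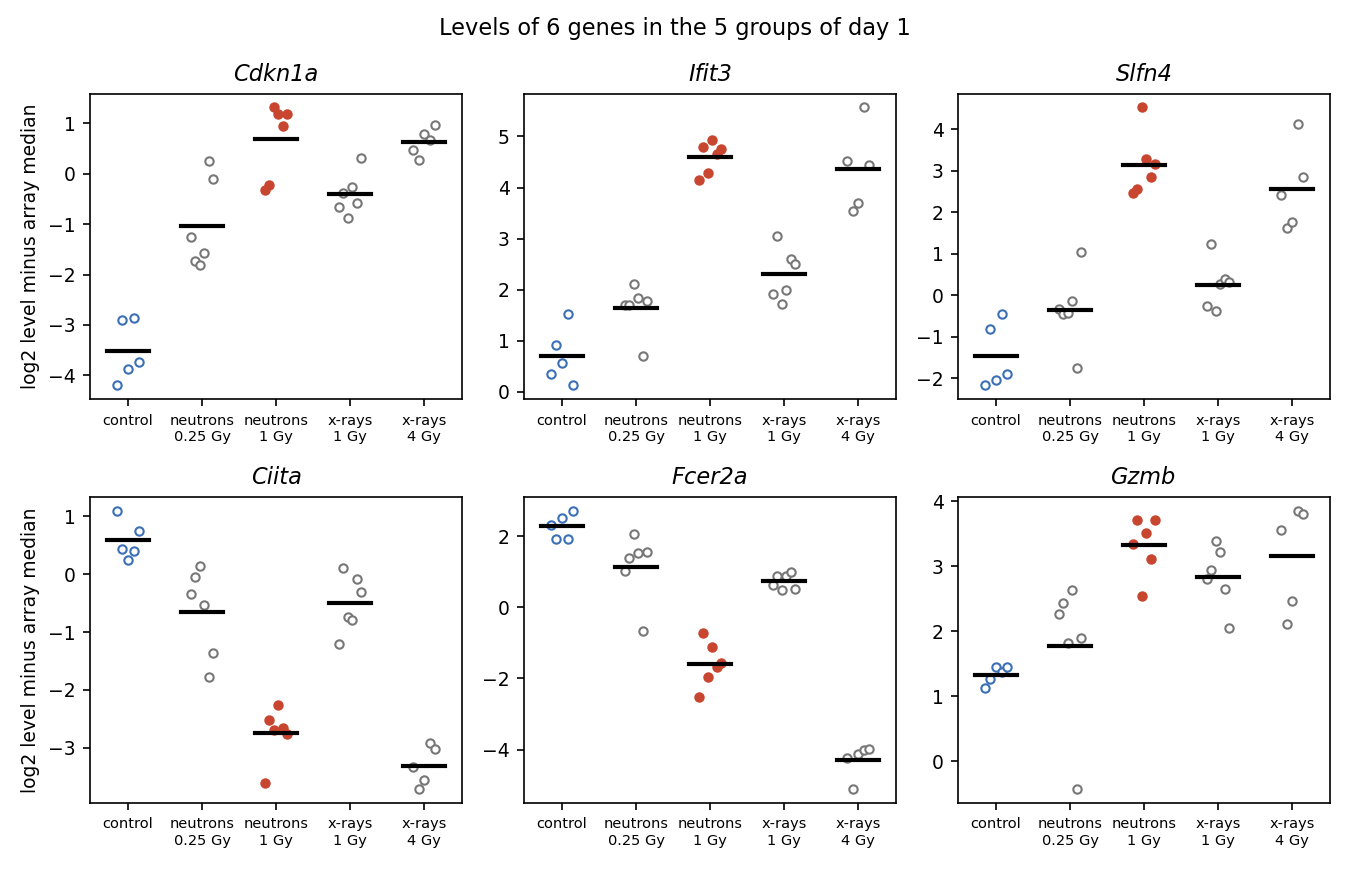
Log2 level minus the array's median (vertical axis) of 6 genes in each mouse of the 5 groups of day 1, with 1 point per mouse, filled red for 1 Gy neutrons, and a bar at the mean of each group. Ifit3 lay at 4.15 to 4.94 after 1 Gy neutrons, above every mouse given 0.25 Gy neutrons or 1 Gy x-rays, and Fcer2a lay between the mice given 1 Gy x-rays and those given 4 Gy x-rays.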

How the data were processed

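Whole blood RNA of 11 mice was hybridized to single-colour Agilent mouse arrays, 1 mouse per array. The intensity values are those the authors deposited, as scanner output of Agilent Feature Extraction 12.0.2, which subtracts background (processed signal). The authors also deposited a table of log2 values, normalized between arrays with dim spots left out. It was not used for results, because only 5 of its 11 columns for these mice followed their own array best. Control spots (1377 of 44397) were left out, and probes were named through their accession where RefSeq held it (28330 of 39429 probes). Log2 processed signal was centred on each array's median over detected probes. Probes with dim or outlying spots on under 25% of the 56 day 1 and day 7 arrays were kept (19808 probes), if at least 20% of arrays also differed at least 1.5-fold from its median. The brightest probe stood for each gene, which left 10863 genes. Other detected probes of a gene could give smaller or larger differences. Groups were fitted with limma 3.58.1 in R 4.3.3, after tests on simulated data, and calls needed p under 0.001 together with a false discovery rate under 5%. A random variance t-test, as in the study's methods, was an alternative, called the methods' t-test. Array number limits the precision, and each p-value sets a group difference against the spread of the arrays within groups. No slide held both neutron mice and controls, so that difference also holds any difference between slides.

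Samples were grouped by title. The members and gene lists were chosen with earlier results of these data known. Genes were named by rule: the 10 largest rises and falls with groups apart, 2 anchor genes of each list, up to 4 called members of each list with the largest change, and genes the study names. Trp53, Sesn1, Rsad2, the macrophage genes and other genes given only in counts were chosen after their values were seen. Lists were described by counts and medians, with no test of a list. Alternatives were other centrings, background correction by normexp (offset 50), filters, scan date and slide as blocks, the replicate number as a block, the hepatocyte level as a covariate, and leaving out each array. Same-numbered mice did not deviate together (correlation from -0.52 to 0.36 over 5 pairs), so the numbers were not used to pair mice. No 2 arrays held identical values. Promoters were RefSeq sequences of GRCm38.p6. Some results are not reported here.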

Additional observations from a re-analysis of the deposited data

Results flagged for a closer look

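In some groups 1 mouse lay far from the others, by a gap that is large against the range of its group (Dixon's criterion). In 280 groups of 140 genes such a gap is found by chance in about 1 group in 20. The genes and lists below are 30 items in all, and many come from the same mice.

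Control replicate 4 was low for lymphocyte genes and several others. Its log2 level was 2.10 for Sesn1 (others 2.89 to 3.03), -0.41 for Ddb2 (others 0.21 to 0.45), 6.15 for Cd79b (others 6.85 to 7.04) and 5.64 for Cd74 (others 6.22 to 6.33). It was 2.39 for Cd3g, 0.15 for Cd8a, 1.95 for Dapl1, 1.29 for Pold1 and 1.35 for Mcm3. Its mean level was 1.78 for the B cell receptor list, 2.14 for the mature B cell list and 2.09 for the naive T cell list. It was high for Camp (4.27, others -1.66 to -0.96) and Saa1 (6.11, others 0.07 to 1.09).

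Neutron replicate 4 was high for Oasl1 (5.44, others 4.54 to 4.83), Fpr2 (3.13, others 2.31 to 2.57), Camp (4.96, others -1.64 to -1.05) and the mean of the neutrophil granule list (1.68, others -0.23 to 0.42). It was low for Alb (1.09, others 8.72 to 9.65), Apoa1 (-3.98, others 3.95 to 5.56) and Saa1 (5.47, others 8.03 to 8.82). Its mean level was -1.52 for the hepatocyte list (others 5.48 to 6.90) and 0.21 for the acute-phase list (others 3.64 to 5.20).

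Neutron replicate 1 was low for Fcrla (-1.55, others 0.07 to 1.04) and Ciita (-3.61, others -2.76 to -2.25). Neutron replicate 3 was low for Fasl (0.26, others 1.28 to 1.82), Xcl1 (-0.54, others 0.58 to 1.05), Nrgn (5.22, others 6.65 to 7.39) and Trpc6 (-0.67, the others at 0.89 or above), and for the mean of the T cell receptor list (0.61, others 1.36 to 1.80).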

How the results depend on the processing

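Against controls 1900 genes were called, and the count was 304 with normexp background correction, 1089 with scan date as a block, 910 on the arrays of the shared scan date, 3354 with slide as a random block and 631 in the 8 mice with much liver transcript, the last chosen after seeing the data. List members called numbered 242, and 94, 159, 140, 380 and 125 under the same settings in that order. Leaving out 1 array gave 1097 to 2252 genes and 149 to 274 members, lowest without control replicate 5 and highest without neutron replicate 4, with 1232 genes without control replicate 1 and 1212 without control replicate 3. The other settings gave 1408 to 2627 genes. The cause of these shifts was not tested.

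With the replicate number as a block, 641 genes and 115 list members were called against controls, 430 genes against 1 Gy x-rays, 0 against 4 Gy x-rays and 219 against 0.25 Gy neutrons. The numbers do not pair the mice.

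Against 0.25 Gy neutrons, 147 genes became 671 under spike-in centring, 7 with normexp, 261 with no minimum fold, 9 with scan date as a block, 9 on the shared date, and 10 to 1012 with 1 array left out. It was 10 without 0.25 Gy replicate 2 or 4, 15 without replicate 1, 16 without replicate 3, 55 without replicate 6 and 1012 without replicate 5, and, leaving out 1 Gy neutron mice, 36, 26, 227, 35 and 11 without replicates 1, 3, 4, 5 and 6. Against 1 Gy x-rays, 983 became 82, 23, 1548, 0 and 10 under the same settings in that order, and 635 to 926 with 1 array left out, lowest without x-ray replicate 2. Against 4 Gy x-rays, 6 became 340 under spike-in centring, 0 with normexp and 1 with scan date as a block, and 0 (without neutron replicate 6) to 10 (without neutron replicate 1) with 1 array left out. The difference in the share of spots well above background, 3.98 percentage points, was 3.19 to 5.35 with 1 array left out, and passed without control replicate 4 (5.35, exact permutation p = 0.00952) or control replicate 5 (4.72, exact permutation p = 0.0333).

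Of 111 named genes called, 88 remained called with the hepatocyte covariate, 64 in the 8 mice and 39 under every setting that left out no array. Signs turned for Fancc under spike-in centring (0.21), for Irf7 in the 8 mice (-0.14) and was -0.0011 (without neutron replicate 4) to 0.36 with 1 array left out, for Ccnb1 (-0.13) and Cdk1 (-0.0013) with normexp, and for E2f8 with all probes as reference (-0.027), the 75th percentile (-0.11) and normexp (-0.12), and it was -0.050 (without neutron replicate 3) to 0.11 with 1 array left out. Camp read -0.042, -0.13 and -0.17 under the same 3 settings, -0.0050 with the mean of its probes, -1.65 in the 8 mice, and -0.999 (without neutron replicate 4) to 1.16 (without control replicate 4) with 1 array left out.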

Other observations

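Metabolic and stress genes, described here by their counts alone, lay mostly above 0 in the neutron mice. A minority of each list was called higher, beside 6.96% of all genes. Of 34 tested antioxidant and glutathione genes 5 were called higher (14.7%), with a median log2 difference of 0.97. Among these 5 were the peroxiredoxin gene Prdx4 (1.57) and the thioredoxin gene Txn1 (1.34). All 22 tested genes of fatty acid beta-oxidation lay above 0 and 2 were called higher (9.09%), with a median of 1.20. One of them was Cpt1a, which carries fatty acids into mitochondria (1.05, SE 0.21, adjusted p = 0.00307 by limma). Of 19 tested glucocorticoid-responsive genes 4 were called higher (21.1%, median 0.66). The count was 1 of 20 sterol synthesis genes (5%, median 0.69) and 2 of 55 subunits of oxidative phosphorylation (3.64%, median 0.60). With 1 array left out, beta-oxidation genes called higher numbered 1 (without control replicate 1) to 10 (without neutron replicate 4), antioxidant genes 3 (without control replicate 3) to 12 (without neutron replicate 4) and oxidative phosphorylation genes 0 (without control replicate 1) to 4 (without neutron replicate 3). Neutron replicate 4, with little liver transcript, had mean log2 levels of 1.22 for beta-oxidation and 2.57 for antioxidant genes, below control replicate 4 (2.32 and 3.13), whose hepatocyte level was 5.47, and the part of liver transcript in these lists was not tested. Of 16 tested splicing factors 4 were called lower (25%, against 10.5% of all genes), with a median of -0.77. That median was 0.03 under spike-in centring, and limma called 0 of these genes without control replicate 1.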
